A study of Mus musculus with 6 samples.

Results

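The 10 genes of mitochondrial fatty acid oxidation described here were measured in sorted cells of infarcted and normal mouse heart, namely the carnitine shuttle genes Cpt1a, Cpt1b, Slc25a20 and Cpt2, the acyl-CoA dehydrogenases Acadvl, Acadl and Acadm, the trifunctional protein genes Hadha and Hadhb, and Etfdh. They were taken from the deposited table by gene symbol, and all 10 were found once among its 45038 genes. In the mice, all of strain C57BL/6 with the alleles Tie2-Cre and Rosa-LSL-tdTomato, the Tie2 promoter drives Cre, and with it tdTomato, in endothelium and in some blood cells, so a sort for tdTomato takes in both. The MI group (3 libraries) came from infarct tissue taken 3 weeks after the left anterior descending coronary artery was tied off, and the Normal group (3 libraries) from left ventricle labelled as being without this surgery. The protocol text, shared by all 6 samples, gives an age of 6 to 8 weeks in describing the surgery, and no separate age is given for the Normal group. In both groups tdTomato+ cells lacking the macrophage antigen F4/80 were sorted, and their RNA was copied and amplified by T7 transcription before sequencing. Libraries are named by the group and the number in the title, Ms1535, Ms1537 or Ms1608, and values of a group are given in that order. The labels do not say how samples of a group differ apart from that number, so a p-value here reflects only how far these libraries spread, which may be technical.

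Long-chain fatty acids enter mitochondria as carnitine esters: CPT1 on the outer membrane makes the ester, the carrier SLC25A20 moves it across the inner membrane, and CPT2 turns it back into acyl-CoA. Chain-length specific acyl-CoA dehydrogenases then start each round of beta-oxidation, the trifunctional protein completes it for long chains, and ETFDH passes the electrons to ubiquinone. Heart muscle draws much of its energy from this pathway and uses the CPT1B isoform, whereas CPT1A is the form of liver and of many other cells, including endothelium, where fatty acid oxidation has been linked to nucleotide synthesis during vessel sprouting.

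The library labelled Normal Ms1608 stood apart from the rest. Correlations of log2(FPKM + 1) across the 10168 tested genes lay between 0.80 and 0.92 among the other libraries and between 0.54 and 0.68 for Normal Ms1608, as a description, since genes are not independent replicates. Pan-endothelial markers (14 genes, summed FPKM) came to 465, 1171 and 291 in MI, to 1359 and 968 in the other Normal libraries, and to 38.4 in Normal Ms1608. Pan-leukocyte markers (12 genes) came to 2593, 2909 and 2704 in MI, to 333 and 494 in the other Normal libraries, and to 4661 in Normal Ms1608. Normal Ms1608 thus held endothelial transcripts at a low level and leukocyte transcripts at the highest level of the 6 libraries, and the group differences of the members and the medians of the gene lists are given with and without it. Fragment totals implied by the low values ran from 34.5 to 47.9 M fragments per library (M for mega).

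Promoter windows of 9 of the 10 genes, all but Cpt1b, were in the RefSeq promoter table used here (GRCm38.p6), each from 250 bases before to 50 bases after a start site. Those below are shown because Hadha and Hadhb lie head to head and parted in Normal Ms1608, and because Cpt1a, of the entry step, and Acadvl, the member with the highest mean, hold the hexamer AGGTCA, which nuclear receptors such as the PPARs recognise. Capitals mark 3 motifs on either strand: the hexamer AGGTCA, the GC box with letters GGGCGG, and the CCAAT box.
Hadha, chr5:30154931-30155230, minus strand: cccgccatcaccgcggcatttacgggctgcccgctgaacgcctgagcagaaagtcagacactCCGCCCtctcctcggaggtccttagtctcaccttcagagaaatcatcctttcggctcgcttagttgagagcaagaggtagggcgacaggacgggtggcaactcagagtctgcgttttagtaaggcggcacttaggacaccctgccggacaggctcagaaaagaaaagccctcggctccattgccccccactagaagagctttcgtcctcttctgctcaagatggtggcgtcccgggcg
Hadhb, chr5:30155003-30155302, plus strand: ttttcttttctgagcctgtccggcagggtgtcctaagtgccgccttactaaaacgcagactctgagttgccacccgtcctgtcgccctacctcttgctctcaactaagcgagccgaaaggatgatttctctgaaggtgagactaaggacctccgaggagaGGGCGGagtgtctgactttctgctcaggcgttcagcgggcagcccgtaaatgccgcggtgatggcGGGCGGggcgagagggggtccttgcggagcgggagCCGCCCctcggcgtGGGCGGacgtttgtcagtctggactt
Cpt1a, chr19:3323051-3323350, plus strand: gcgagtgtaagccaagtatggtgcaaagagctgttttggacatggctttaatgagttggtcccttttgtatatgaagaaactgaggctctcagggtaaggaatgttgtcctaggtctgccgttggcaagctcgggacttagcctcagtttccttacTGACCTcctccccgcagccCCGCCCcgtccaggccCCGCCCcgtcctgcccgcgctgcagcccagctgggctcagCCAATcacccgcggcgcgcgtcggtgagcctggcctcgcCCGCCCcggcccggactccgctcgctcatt
Acadvl, chr11:70015379-70015678, minus strand: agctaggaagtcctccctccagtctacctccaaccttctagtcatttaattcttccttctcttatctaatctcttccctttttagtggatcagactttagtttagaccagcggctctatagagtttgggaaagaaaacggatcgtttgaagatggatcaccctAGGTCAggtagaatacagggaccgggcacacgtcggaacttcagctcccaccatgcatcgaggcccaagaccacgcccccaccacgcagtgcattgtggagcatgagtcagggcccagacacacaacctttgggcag
The GENCODE gene models of Hadha and Hadhb begin 86 bases apart on opposite strands, and their windows, which rest on RefSeq starts, share 228 bases. AGGTCA was found in 3 of the 9 windows (Acadm, Acadvl and Cpt1a), against 16.26% of 32851 promoter windows of the same length. GGGCGG was found in 7 of the 9, namely Acadl, Etfdh, Cpt2, Hadha, Hadhb, Slc25a20 and Cpt1a, against 35.66% of all windows. The only GC box of the Hadha window lies in the bases shared with Hadhb and is also marked there, so these windows do not count independently. The CCAAT box was found in 2 of the 9 (Etfdh and Cpt1a), against 37.41% of all windows. The PPAR-type direct repeat AGGTCANAGGTCA was found in 0 of the 9 and in 0.04% of all windows. The extended half-site TCAAGGTCA, which contains AGGTCA, was found in 0 of the 9 and in 0.42% of all windows, and the E-box CACGTG in 0 of the 9 and in 7.15%. These 6 motifs, all searched on both strands, were the ones tried. These counts describe the letters in these windows and nothing about binding.

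Fatty acid oxidation genes were present in both groups at moderate levels, except for Cpt1b. Acadvl, which encodes the very-long-chain acyl-CoA dehydrogenase, had the highest mean over the 6 libraries (28.4 FPKM), followed by Acadm (15.8), Acadl (13.3), Etfdh (8.95), Slc25a20 (8.77), Hadhb (7.30), Cpt1a (4.56), Hadha (4.01) and Cpt2 (3.06). Cpt1b was lowest, at a mean of 0.226 FPKM. Without Normal Ms1608 the order changed in the middle: Acadvl (18.7) and Acadm (15.3) were followed by Etfdh (10.5), Acadl (9.92), Hadhb (8.73), Hadha (4.31), Cpt1a (3.87), Slc25a20 (3.76) and Cpt2 (3.63), with Cpt1b again lowest (0.245). FPKM is scaled by transcript length, and setting levels of different genes side by side assumes even coverage along each transcript. Coverage was not examined in these amplified libraries, so the order is approximate. The ranges of all neighbours in this order overlapped, those of Cpt2 and Cpt1b only through the Cpt2 value of Normal Ms1608 (0.197).

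**Figure D1:**
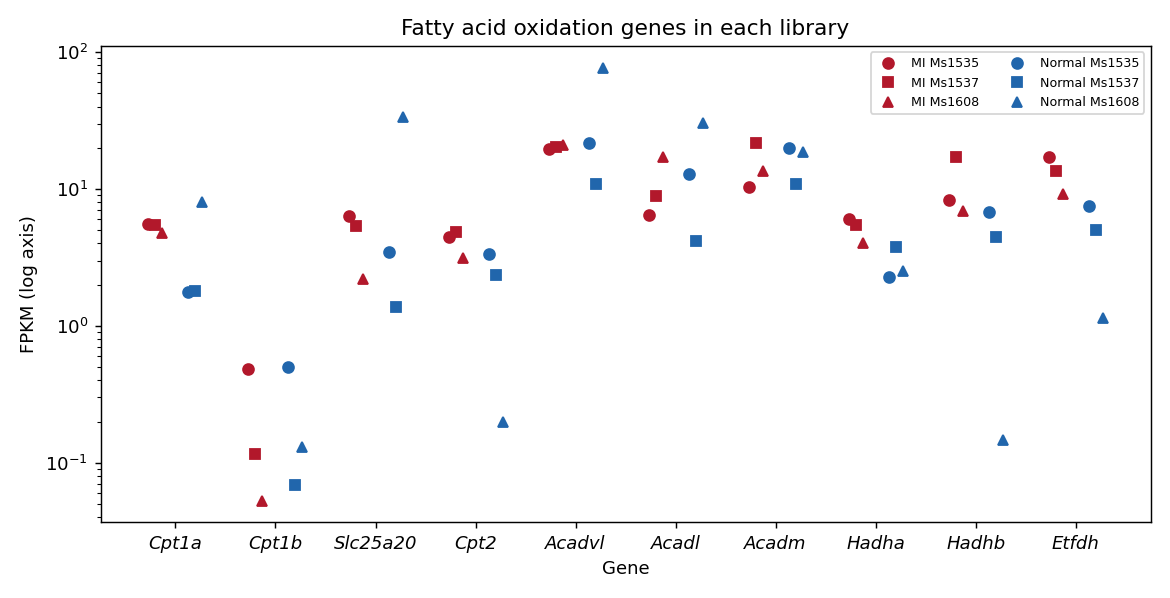
FPKM on a log axis (vertical) for each of the 10 genes (horizontal), 1 point per library, red for MI and blue for Normal, with circles for Ms1535, squares for Ms1537 and triangles for Ms1608. Cpt1b lies between 0.0530 and 0.500 FPKM in all libraries, and the blue triangle (Normal Ms1608) is above all others for Acadvl, Acadl, Slc25a20 and Cpt1a and below all others for Cpt2, Hadhb and Etfdh.

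At the entry step, Cpt1a, the CPT1 isoform of most non-muscle cells, had 5.57, 5.49 and 4.74 FPKM across the MI libraries, against 1.78, 1.78 and 7.99 FPKM across the Normal libraries. The MI libraries lay close together and above the first pair of Normal libraries, but below Normal Ms1608. The log2 difference, MI minus Normal on log2(FPKM + 1), was 0.60 (SE 0.70, limma adjusted p = 0.672). Without Normal Ms1608 it was 1.17 (SE 0.46, 95% interval 0.13 to 2.21), with an unadjusted p of 0.0313 in limma and an adjusted p = 0.129, so Cpt1a did not pass the threshold of 0.05 in either comparison.

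Cpt1b, the muscle isoform, had 0.485, 0.116 and 0.0530 FPKM across MI against 0.500, 0.0692 and 0.130 FPKM across Normal. The groups overlapped over their whole range, and the high value in each group was that of Ms1535. Cpt1b did not reach 1 FPKM in any library, so it was not tested with the other 9 genes. On its longest coding transcript of 2895 bases these values correspond to about 63 and 58 fragments in MI and Normal Ms1535 and to 5 to 13 fragments in the other libraries. These counts, like all fragment counts here, rest on the implied fragment totals, which were not reconciled with the read number in the labels' protocol. Totals set too high would make the counts too high and the Poisson intervals too narrow. In MI Ms1608, with 5 fragments, the exact 95% Poisson interval was 0.0172 to 0.124 FPKM, which covers counting error only. The log2 ratio of Cpt1b to Cpt1a (each + 1 FPKM) was -2.38 ± 0.21 in MI and -1.75 ± 1.10 in Normal (SD, n = 3 each), a difference of -0.62 that did not exceed the spread (exact two-sided permutation test over 20 splits, p = 0.4, the smallest possible being 0.1). Without Normal Ms1608 the difference was -1.24 (exact permutation p = 0.1, the smallest that 10 splits allow), and without Normal Ms1535 it was -0.19 (exact permutation p = 0.8), so its size rested on single libraries.

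Cpt1b did not rank with the summed heart muscle markers across the libraries, and a part of muscle RNA in its values was not tested. Cardiomyocyte markers (23 genes, summed FPKM) came to 306, 181 and 1370 in MI and to 1011, 608 and 108 in Normal. The library with the most muscle RNA, MI Ms1608, had the lowest Cpt1b, on about 5 fragments. Its Poisson interval (0.0172 to 0.124 FPKM, counting error only) includes the values of MI and Normal Ms1537, so its place below them is not resolved. That interval lies below the one of MI Ms1535 (0.371 to 0.618 FPKM), which had less muscle RNA. Cpt1b per 1000 FPKM of muscle markers ran from 0.0386 in MI Ms1608 to 1.59 in MI Ms1535. Myl2, a ventricular myosin light chain, had 158, 92.3 and 629 FPKM across MI against 502, 312 and 5.53 FPKM across Normal, so muscle transcripts were present in all 6 libraries. Of the 23 markers, 1, 2 and 0 were listed at 0 in the MI libraries and 0, 0 and 4 in the Normal libraries. In Normal Ms1608 Myl2, Tnni3 and Tnnt2 were at 5.53, 1.08 and 0.757 FPKM, so most of its sum of 108 came from other markers. Adipocyte markers (8 genes), another possible source of these enzymes, summed to 0.150 to 1.77 FPKM, with 2 to 5 of them listed at 0. In bulk libraries such as these, fewer cells of a type and less RNA per cell cannot be told apart. The annotation places the read-through gene Gm44502 over the whole of Cpt1b on the same strand, with Chkb, a choline kinase gene, 497 bases away at 3.998 to 15.5 FPKM, so fragments of Cpt1b and of read-through transcripts cannot be told apart.

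**Figure D2:**
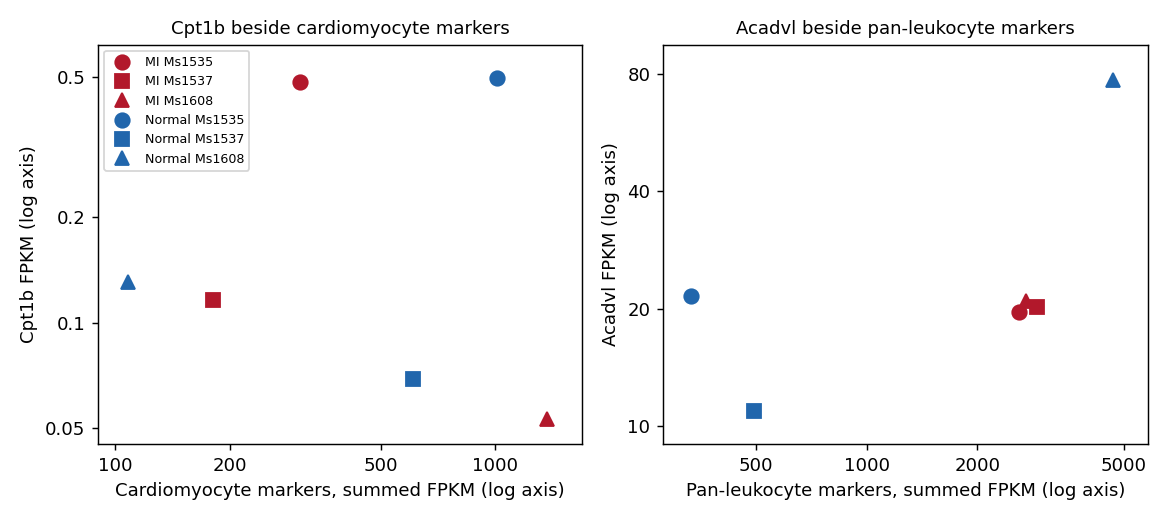
Left, FPKM of Cpt1b against summed FPKM of 23 cardiomyocyte markers; right, FPKM of Acadvl against summed FPKM of 12 pan-leukocyte markers, all on log axes, 1 point per library. The highest muscle sum (1370, MI Ms1608) goes with the lowest Cpt1b (0.0530 FPKM, about 5 fragments). The highest leukocyte sum (4661, Normal Ms1608) goes with the highest Acadvl (77.1 FPKM). In the MI libraries (leukocyte sums 2593 to 2909) Acadvl lies at 19.6 to 21.0 FPKM. It lies at 21.5 FPKM in Normal Ms1535 (333) and at 10.9 FPKM in Normal Ms1537 (494).

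Slc25a20, the carnitine-acylcarnitine carrier, had 6.37, 5.36 and 2.21 FPKM across MI against 3.47, 1.37 and 33.8 FPKM across Normal. Normal Ms1608 held 9.75 times the median of the other 5 libraries, and the groups overlapped with and without it. The log2 difference was -0.43 with an SE of 0.99 (adjusted p = 0.848 by limma), and 0.71 without Normal Ms1608 (SE 0.57, limma adjusted p = 0.381), so its sign rested on that library. Cpt2, which frees the acyl group in the matrix, had 4.43, 4.85 and 3.12 FPKM across MI against 3.37, 2.37 and 0.197 FPKM across Normal. Its log2 difference was 0.96 with an SE of 0.65 (adjusted p = 0.450 by limma) and 0.40 without Normal Ms1608 (limma adjusted p = 0.542). In Normal Ms1608 the carrier thus had its highest level of the 6 libraries and Cpt2 its lowest, equal to about 16 fragments.

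Among the dehydrogenases, Acadvl had 19.6, 20.2 and 21.0 FPKM across MI against 21.5, 10.9 and 77.1 FPKM across Normal. The MI values spanned a factor of 1.07 and lay within the Normal range. Acadvl shares 2119 bases with Dvl2 on the opposite strand (1.39 to 6.96 FPKM), and the strand setting of the quantification is not given in the sources used here. Acadl, the long-chain enzyme, had 6.50, 8.82 and 17.3 FPKM against 12.8, 4.16 and 30.4 FPKM, with the Ms1608 library highest in each group. An intron of Acadl holds the processed pseudogene Gm15793, at 5.02 to 30.6 FPKM. Acadm, the medium-chain enzyme, had 10.4, 21.6 and 13.5 FPKM against 20.0, 10.9 and 18.5 FPKM, with groups that overlapped almost completely. The log2 differences were -0.37 for Acadvl (SE 0.79, limma adjusted p = 0.833), -0.25 for Acadl (SE 0.82, limma adjusted p = 0.897) and -0.13 for Acadm (SE 0.67, limma adjusted p = 0.934). Without Normal Ms1608 they were 0.38, 0.39 and -0.03, so that the first pair changed sign.

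Of the members, the genes of the trifunctional protein and Etfdh had groups that did not overlap in the deposited FPKM, as did 25.0% of all tested genes with MI higher. After median-ratio, upper-quartile or quantile scaling the groups of all 3 genes overlapped. Etfdh, the ubiquinone reductase that receives the electrons of the acyl-CoA dehydrogenases through the carrier protein ETF (genes Etfa and Etfb), had 17.2, 13.6 and 9.15 FPKM across MI against 7.52, 5.01 and 1.14 FPKM across Normal. Every MI library was above every Normal library. The log2 difference was 1.54 (SE 0.75, 95% interval -0.13 to 3.21, limma adjusted p = 0.321). Hadhb, the beta subunit that carries the thiolase, had 8.37, 17.0 and 6.93 FPKM across MI against 6.82, 4.49 and 0.148 FPKM across Normal. MI Ms1608 and Normal Ms1535 lay almost level, and the log2 difference was 1.59 with an SE of 0.85 (adjusted p = 0.359 by limma). Hadha, the alpha subunit with the hydratase and dehydrogenase, had 6.00, 5.50 and 4.04 FPKM across MI against 2.27, 3.77 and 2.51 FPKM across Normal. Its lowest MI and highest Normal values were also close, and the log2 difference was 0.69 with an SE of 0.61 (adjusted p = 0.566 by limma). Without Normal Ms1608 the log2 differences of Etfdh, Hadhb and Hadha were 0.96, 0.75 and 0.63 (adjusted p = 0.209, 0.336 and 0.363 by limma).

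The 2 subunits of the trifunctional protein, whose promoter windows are printed above, did not keep a constant ratio. Hadhb was at 1.40, 3.10 and 1.72 times the FPKM of Hadha in MI, at 3.01 and 1.19 times in Normal Ms1535 and Ms1537, and at 0.0587 times in Normal Ms1608. There Hadhb was at about 10 fragments (exact 95% Poisson interval 0.0686 to 0.263 FPKM, counting error only), while Hadha lay inside the range of the other libraries. The log2 ratio of Hadhb to Hadha (each + 1 FPKM) was 0.85 ± 0.55 in MI and -0.05 ± 1.45 in Normal (SD, n = 3; exact two-sided permutation test, p = 0.4). The difference was 0.90, and 0.12 without Normal Ms1608 (exact permutation p = 0.8 over 10 splits). Ratios of 7 pairs of members were tested in this way, all but that of Cpt1b to Cpt1a chosen after the values were seen. Their exact permutation p-values ran from 0.3 to 1, with a lowest Benjamini-Hochberg adjusted p of 0.933, and those of Cpt1b to Cpt1a and of Hadhb to Hadha were both 0.933 after this adjustment.

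Taken over the list, 0 of the 9 tested genes passed the limma threshold, and 0 had an unadjusted p under 0.05. Across all genes 1 of 10168 passed (0.00983%), the small RNA gene Gm24890, and 16.3% had an unadjusted p under 0.05. Without Normal Ms1608, 0 members passed where 4.51% of all genes did, and 1 member, Cpt1a, had an unadjusted p under 0.05 where 31.6% of all genes did. Higher in MI with no overlap between groups were 3 of 9 members (33.3%), against 25.0% of all tested genes, and 0 members were lower in that way, against 0.354%. Without Normal Ms1608 the count was 4 of 9, Cpt1a being the addition, against 52.6% of all tested genes (1.75% lower). These shares are near or below the background, so they show nothing about the members. A positive log2 difference was found for 5 of 9 members and for 87.2% of all tested genes. The median over the members was 0.60, against 0.78 over all tested genes, and without Normal Ms1608 it was 0.63 against 0.83, with 8 of 9 positive.

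**Figure D3:**
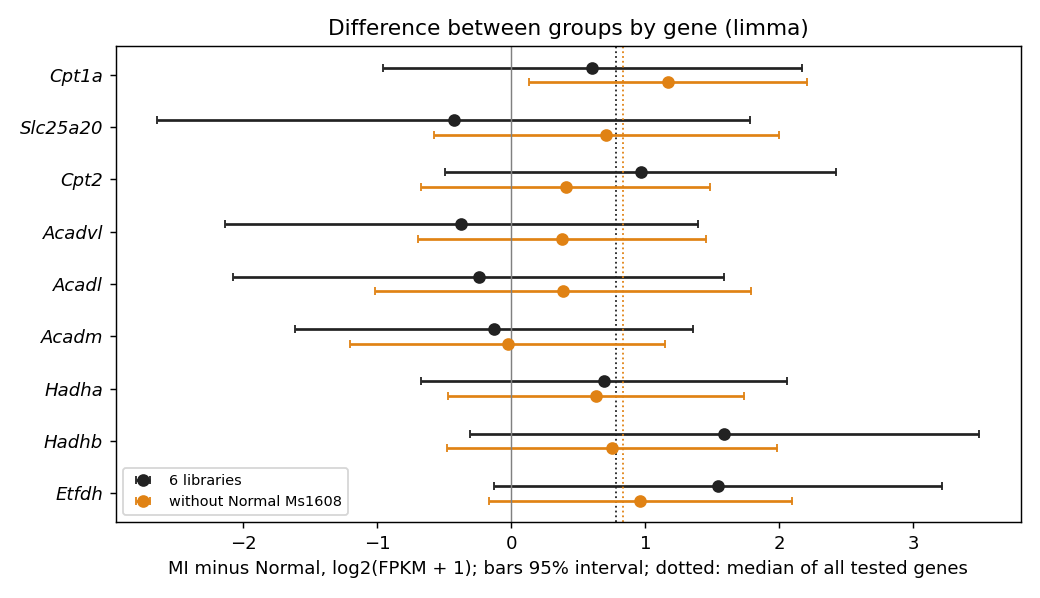
Group difference, MI minus Normal, in log2(FPKM + 1) (horizontal) for the 9 tested genes (vertical), with 95% limma intervals, in black for all 6 libraries and in orange without Normal Ms1608; dotted lines give the median of all tested genes (0.78 and 0.83). Every black interval includes 0, and only that of Cpt1a excludes it in orange.

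The positive values depended on the scale of the libraries. After median-ratio scaling, in which the median gene lay at -0.03, 3 of 9 members remained above 0 (Etfdh at 0.61, Hadhb at 0.73 and Cpt2 at 0.21), and after quantile scaling 2 did (Etfdh at 0.44 and Hadhb at 0.41). After upper-quartile scaling 5 of 9 did. Under each of these scalings 0 members were higher in MI without overlap (background 6.77%, 9.16% and 5.58% for median-ratio, upper-quartile and quantile scaling). Under each of them Acadm was lower in MI without overlap, with log2 differences of -1.15, -0.83 and -0.88 (adjusted p = 0.905, 0.885 and 0.891 by limma), where 7.77%, 5.16% and 6.78% of all genes were.

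**Figure D4:**
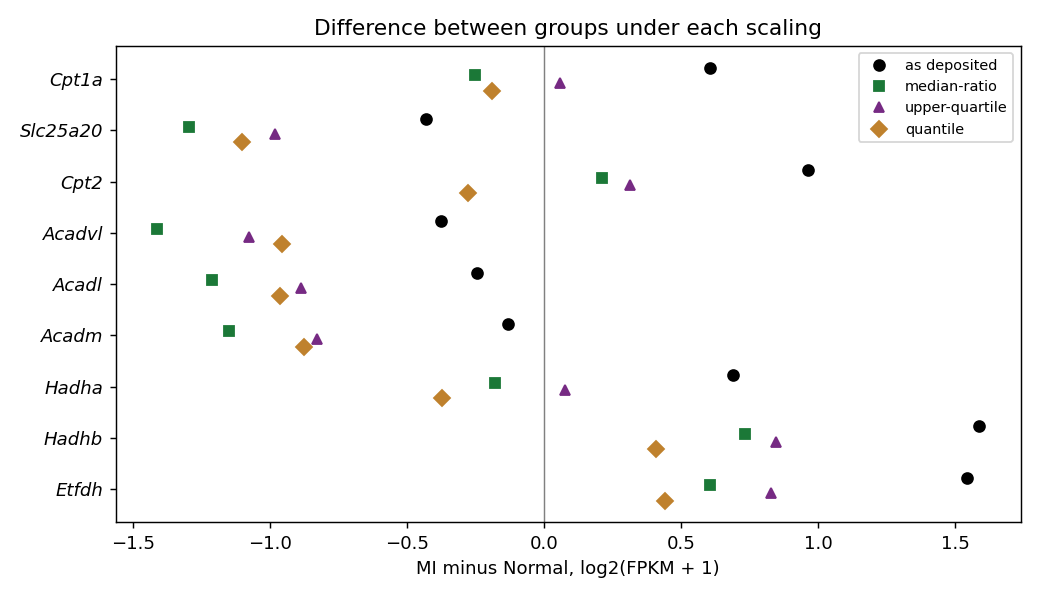
Group difference, MI minus Normal, in log2(FPKM + 1) (horizontal) for the 9 tested genes (vertical) as deposited (black circles) and after median-ratio (green squares), upper-quartile (purple triangles) and quantile scaling (brown diamonds). Etfdh and Hadhb stay above 0 in all 4, and Acadvl, Acadl, Acadm and Slc25a20 stay below 0 in all 4.

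Normal Ms1608 differed from the other 5 libraries in most members, in both directions. Acadvl (77.1 FPKM), Acadl (30.4), Slc25a20 (33.8) and Cpt1a (7.99) were above the highest of the others, at 3.81, 3.44, 9.75 and 1.69 times their median. Cpt2, Hadhb and Etfdh were below the lowest, the median of the others being 17.1, 47.0 and 8.05 times as high. That made 4 of 10 above and 3 of 10 below, against 26.8% and 44.1% of all tested genes, so a place outside the range was common in this library. The leukocyte and endothelial sums given above were also outside the range of the others in Normal Ms1608, and their part in these values was not tested.

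By Pearson correlation of log2(FPKM + 1) over the 6 libraries, the tested genes most like Cpt1b were Mier1 (0.95), Ramp3 (0.94), Cfap69 (0.93), Ppt2 (0.91) and Prdx1 (0.88), which share its high values in both Ms1535 libraries, Mier1 having 170 and 106 FPKM there against 3.15 to 23.2 elsewhere. None is a cardiomyocyte marker of the list used here. The genes most like the mean of the other 9 members were Zfand3 (0.99), Eif3b (0.99), Hnrnpul2 (0.99), Mtss1 (0.99) and Mif (0.98), each lowest in Normal Ms1537, where that mean was lowest too. With 253 tested genes above 0.9, likeness to that mean was common, and these values only describe the 6 libraries.

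The wider pathway was read from lists written from textbook knowledge, each set against the 0.78 median of all tested genes. Of 16 other enzymes and electron acceptors of mitochondrial beta-oxidation, 14 were tested, 0 passed the limma threshold and 1 had an unadjusted p under 0.05, with 13 of 14 positive and a median log2 difference of 1.01. Over all tested genes 16.3% had such a p and 87.2% were positive. That gene was Acad8, an isobutyryl-CoA dehydrogenase of valine breakdown, with 10.5, 6.62 and 3.70 FPKM across MI against 1.65, 2.65 and 0.134 FPKM across Normal (log2 difference 1.74 with SE 0.69, adjusted p = 0.275 by limma). Eci1, an enoyl-CoA isomerase for unsaturated fatty acids, had 46.4, 32.5 and 31.0 FPKM against 16.7, 17.3 and 6.15 FPKM, also with no overlap (log2 difference 1.49 with SE 0.68, adjusted p = 0.308 by limma). Of 5 further carnitine genes 2 were tested, and Crat, carnitine acetyltransferase, had 1.81, 2.34 and 1.54 FPKM against 1.24, 1.39 and 0.242 FPKM. Of 9 acyl-CoA synthetases and thioesterases 8 were tested (median 0.68, 0 passed), with Acot2, a mitochondrial thioesterase, at 5.23, 3.79 and 5.56 FPKM against 3.26, 0.567 and 0.132 FPKM. Peroxisomal beta-oxidation had 10 of 15 genes tested and a median of 0.53, with 0 passed and 0 at an unadjusted p under 0.05.

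Genes that set the rate of the shuttle were tested for 6 of 9, with a median of 0.93, 4 of them higher in MI without overlap (25.0% of all tested genes) and 0 passed. Of the 6, 1 was higher without overlap under median-ratio, 2 under upper-quartile and 1 under quantile scaling. Of all tested genes, 6.77%, 9.16% and 5.58% were higher in that way, in the same order, and counts out of 6 are too small to compare. Mlycd, which breaks down the CPT1 inhibitor malonyl-CoA, had 2.89, 4.89 and 1.79 FPKM across MI against 1.44, 1.07 and 0.0821 FPKM across Normal (log2 difference 1.18 with SE 0.53, adjusted p = 0.305 by limma). Prkab2, a regulatory subunit of AMP kinase, had 5.37, 5.75 and 3.16 FPKM against 1.74, 1.55 and 0.0331 FPKM (log2 difference 1.54 with SE 0.60, adjusted p = 0.272 by limma). Of 13 nuclear receptors and coactivators 7 were tested (median 1.23, 0 passed), led by Lpin1, a lipin that also acts as a coactivator, with 2.91, 6.06 and 2.32 FPKM against 0.605, 0.821 and 0.718 FPKM (log2 difference 1.40 with SE 0.50, adjusted p = 0.255 by limma). Ppara and Ppargc1a, named here after their values were seen, were below the filter, at 0 to 0.672 and 0.0115 to 0.209 FPKM. Of 14 PPAR targets, Cpt1a among them, 9 were tested (median 0.76, 0 passed), and Plin2, a lipid droplet coat protein, had 15.9, 23.4 and 13.7 FPKM against 11.4, 7.42 and 5.59 FPKM. Ketone body use had 4 of 5 tested (median 0.62, 0 passed), with Oxct1, which activates acetoacetate, at 88.2, 29.8 and 26.5 FPKM against 8.60, 12.3 and 19.9 FPKM.

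Downstream of beta-oxidation, 16 of 17 tricarboxylic acid cycle genes were tested (median 0.67, 14 positive, 5 higher without overlap, 0 passed) and 25 of 25 nuclear-encoded respiratory chain genes (median 0.26, 19 positive, 5 higher without overlap, 0 passed), where 87.2% of all tested genes were positive and 25.0% higher without overlap. After median-ratio scaling 0 of either list were higher without overlap, and 0 tricarboxylic acid cycle genes and 10 respiratory chain genes were lower without overlap (7.77% of all tested genes). This count rested on the scaling. Under upper-quartile scaling 3 respiratory chain genes were lower without overlap (5.16% of all tested genes) and 0 higher. Under quantile scaling 0 were lower (6.78%) and 1 was higher (5.58%). For the tricarboxylic acid cycle both counts were 0 under these scalings. Glycolysis had 17 of 20 tested (median 0.81, 0 passed, 3 at an unadjusted p under 0.05), among them Hk2, a hexokinase, with 39.7, 9.29 and 3.61 FPKM across MI against 0.104, 0.210 and 0.971 FPKM across Normal (log2 difference 3.17 with SE 0.83, adjusted p = 0.245 by limma). After median-ratio scaling the medians were 0.01 for the other beta-oxidation enzymes, -0.31 for the tricarboxylic acid cycle and -0.82 for the respiratory chain, so the last 2 changed sign. After upper-quartile and quantile scaling the medians were 0.28 and 0.11, -0.05 and 0.04, and -0.48 and -0.03 in that order. The medians for acyl-CoA synthetases and thioesterases (-0.23), peroxisomal beta-oxidation (-0.32), ketone body use (-0.11) and glycolysis (-0.07) were also below 0 after median-ratio scaling, where the median gene lay at -0.03. Without Normal Ms1608, 0 of the other beta-oxidation enzymes, 1 gene of the tricarboxylic acid cycle, 0 of the respiratory chain and 11 of 12 pan-leukocyte markers passed. In that setting 4.51% of all tested genes passed. The list medians without that library, against 0.83 over all tested genes, were 0.48 for the other beta-oxidation enzymes, 0.52 for acyl-CoA synthetases and thioesterases, 0.49 for peroxisomal beta-oxidation, 0.96 for control of the shuttle, 0.65 for nuclear receptors and coactivators, and 0.64 for PPAR targets. They were 1.08 for ketone body use, 0.84 for the tricarboxylic acid cycle, 0.40 for the respiratory chain and 0.98 for glycolysis. Leukocyte markers (median 1.72) and fibroblast markers (median 3.14, 7 of 10 higher without overlap, and 3 to 5 of 10 after the scalings) had medians above those of all these pathway lists, while cardiomyocyte (0.28) and pan-endothelial markers (0.65) lay below the median of all genes. Without Normal Ms1608 the medians were 2.90 for leukocyte, 2.05 for fibroblast, -0.75 for cardiomyocyte and -0.91 for pan-endothelial markers, so the last pair changed sign, as it did under each of the 3 scalings. Fibroblast markers summed to 5954, 5607 and 1013 FPKM across MI against 717, 953 and 199 FPKM across Normal, and erythroid markers to 432, 1960 and 9599 FPKM against 6833, 7232 and 1028 FPKM, and the part of these cells in the values above was not tested.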

How the data were processed

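The deposited table holds FPKM (fragments per kilobase of transcript, divided by the library's mapped fragments), made by the authors with STAR 2.4.2a and Cufflinks 2.2.1 on GRCm38, per the submitters' processing notes, 1 column per library; for the annotation release, strand setting and multi-mapping reads nothing is given in the sources used here. GENCODE M21 (GRCm38), used for positions, held 98.6% of its gene identifiers. Depth was read from low values of single-transcript genes, taken to fall on steps of 1 fragment. Of these values 92.8% to 94.3% lay within 0.1 of a whole number, on the values used to fit the step. This gave 34.5 to 47.9 M (mega) fragments, against about 10 M reads in the labels' protocol, which was not reconciled. The search did not reach down to 10 M, so it could not have returned that total. Multiples of a true step also give whole numbers, so the totals may be too high. On a gene of 2 kb, 3 fragments equal 0.0343 to 0.0475 FPKM.

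Genes at 1 FPKM or more in at least 3 libraries (10168, with 9 of the 10 members) were compared as MI minus Normal by limma 3.58.1 (R 4.3.3) (variance trend over the mean) of log2(FPKM + 1), Benjamini-Hochberg adjusted over all tested genes, threshold 0.05. This scale understates changes of low genes. The limma step was checked on simulated data with known differences. The simulated noise was capped at the lower quartile of the spreads of the tested genes. The check therefore does not show how limma performs at the full spread of these data. Ratios of members were tested by exact permutation over libraries. Named genes are the 10 members, up to 3 genes with the lowest limma p of each pathway list, the most abundant markers of each cell type and the 5 genes most like Cpt1b or the mean of the other members. Members and lists were chosen with earlier results of these data known. The shared numbers in the titles were not taken as pairs. No column of the table was left unused. Of the listed genes, Cox4i1 was not analysed here.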

Additional observations from a re-analysis of the deposited data

How the results depend on the processing

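The limits are few libraries (3 against 3), Normal Ms1608, and the general scale of the libraries. Of the members tested (9, but 10 without a filter and 6 with a filter of 5 FPKM), 0 passed the threshold in each of the 16 settings run with limma. The number of all genes past it was 1, and between 1 and 459 when a library was left out, 459 without Normal Ms1608. The median log2 difference of the tested members, 0.60, was -0.19 when genes needed a mean of 5 FPKM or more, -0.25 after median-ratio scaling, 0.059 after upper-quartile scaling and -0.37 after quantile scaling, and lay between 0.32 and 0.67 with a library left out. The following counts were added after seeing the data. Members higher in MI numbered 5, and 2 with the filter of 5 FPKM, 3 after median-ratio and 2 after quantile scaling, and 5 to 8 with a library left out. Members higher in MI without overlap numbered 3, and 0 after each of the 3 scalings, and 3 to 4 with a library left out. Signs changed after median-ratio scaling for Cpt1a (-0.25) and Hadha (-0.18), and after quantile scaling for Cpt1a (-0.19), Hadha (-0.37) and Cpt2 (-0.28). With a library left out, Acadl ranged from -0.92 to 0.39, Acadm from -0.40 to 0.094, Acadvl from -0.98 to 0.38 and Slc25a20 from -1.23 to 0.71; all 4 were negative with all 6, and Acadm turned positive without MI Ms1535 or Normal Ms1535. Etfdh and Hadhb kept a positive difference in all 16 settings. The group difference (MI minus Normal) of the Cpt1b to Cpt1a log2 ratio was run under 10 settings (the pseudocounts, the block and each library left out). It was negative in these, from -1.24 to -0.19 with a library left out. With the replicate number as a block (replicate block), 0 members and 1 gene passed and the median was 0.60, and the paired difference of the Cpt1b to Cpt1a log2 ratio was -0.62 (exact sign-flip permutation test, p = 0.5). Deviations of same-numbered libraries from their group means correlated at -0.05, 0.10 and 0.09 across genes, and not every library correlated best with its own number. With 3 libraries per group these values cannot settle whether same-numbered libraries share an animal or a batch, and the labels do not say. The block changed no call. The causes of these changes were not tested. Values under 0.2 FPKM rest on few fragments.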
